A study of Saccharomyces cerevisiae with 24 samples.

Results

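The early age response of budding yeast lacking MUS81 was read from 4 RNA-seq libraries: mother cells of a mus81 diploid aged for 24 h (n = 2) against log phase cells of the same strain (n = 2), out of 24 libraries in the series. The libraries were chosen by their labels alone. All came from diploid Saccharomyces cerevisiae carrying the mother enrichment programme (MEP), grown in YPD at 30 °C; the same table also held the mus81 mutant at 48 h and the wild type MEP diploid at 24 h, at 48 h and in log phase (n = 2 each). Aged cells had been labelled with biotin, grown on with β-estradiol and purified as mothers, whereas the log phase cells were taken from the starting culture before that growth, so age, the ageing culture and estradiol cannot be told apart; whether log phase cells went through the same purification was not clear from the protocol. The labels give the strain as a mus81 mutant and name neither the allele nor separate cultures for the replicates, so the p-values measure the spread between these libraries, which may be technical.

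Mus81, with its partner Mms4, is an endonuclease that cuts branched DNA such as stalled replication forks and recombination intermediates. In an MEP strain, estradiol switches on a Cre recombinase driven by the daughter-specific SCW11 promoter, which excises the essential genes UBC9 and CDC20 in daughters so that original mothers outlast them. Ageing yeast mothers are known for circles of ribosomal DNA (rDNA) that replicate and are kept by the mother, and the series asks how such circles bear on the ageing transcriptome. The general stress response, run by the factors Msn2 and Msn4, and ribosome production, run by nutrient signalling, usually move in opposite directions in yeast.

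The targeted gene was read first. MUS81 had 10 and 2 reads in the mus81 24 h libraries and 10 and 0 reads in the mus81 log libraries, against 150 and 39 reads in wild type 24 h and 117 and 107 reads in wild type log libraries. The mutant libraries thus held few reads of the gene, too few for a usable change (1.01 ± 0.83 on the log2 scale, SE, adjusted p = 0.327 in limma). The partner gene MMS4† stood at 6.70 and 6.46 at 24 h and at 6.26 and 6.57 in log phase, and did not pass the test. Recovered depth was 5103287 and 4188153 reads at 24 h against 11330955 and 6647391 in log phase. The 2 replicates correlated at 0.985 at 24 h and at 0.991 in log phase across 6669 features. Values are the authors' log2 levels, changes are 24 h minus log with the SE of the fit, and a feature was called at an adjusted p under 0.05. An asterisk marks features that share long exact stretches with another feature or overlap one on the same strand. The sign † marks features that overlap one on the other strand, since the strand setting of the counting is not given in the sources used here.

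Of 6669 features tested, 3469 were called (52.0%), 1752 higher (26.3%) and 1717 lower (25.7%) at 24 h. The rises were the larger changes: 1035 called features were higher by over 1 on the log2 scale (15.5% of those tested) and 407 lower by as much (6.10%), while 445 were higher and 16 lower by over 2. The split depends on the scale. The authors' scaling put the median change of all features at 0.08, whereas on log2 reads scaled to each library's total the median was 0.56, with 3158 features higher and 670 lower, and after quantile normalization it was −0.10, with 1285 higher and 1575 lower. Values on these other scales stand beside a list below where they turn the sign of its median or move the larger of its counts by over 1.5 times, and counts scaled to total reads are to be read against the 3158 and 670 of all features. Quantile normalization gives every library the same distribution of levels. It can therefore take out a fall that the features with the highest levels share, and cannot decide whether such features fell.

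On the authors' scale the change followed the level a gene has in growing cells. Features were split into quartiles by their level in wild type log libraries, which enter no mus81 level or change (they share in the estimate of spread behind the calls). In the lowest quartile 40.05% of features were higher and 0.2998% lower in mus81 at 24 h, and the median change was 1.18. In the highest quartile 8.458% were higher and 65.87% lower, and the median change was −0.58. The quartiles were not run on the other scales. A feature without reads stood at −1.02 in log replicate 1 and at −0.245 in log replicate 2. This floor differs by library and enters the changes of the lowest features. The same number of reads stood higher at 24 h. With 10 reads MUS81 stood at 3.12 in 24 h replicate 1 and at 2.46 in log replicate 1. A count of 2 reads stood at 1.12 in 24 h replicate 2 (MUS81) and at 0.91 in log replicate 2 (CDA2). On the group means a feature without reads thus comes out higher at 24 h. Its part in the rise of the lowest quartile was not tested. The 10 features with most reads held 8.14% and 8.40% of the reads at 24 h, against 12.8% and 12.5% in log phase. Fewer features were without a read at 24 h, 193 and 137, than in log phase, 286 and 401, although the log libraries were deeper. In all, 81 features had reads in both 24 h libraries and in neither log library, and 6 the reverse. Whether a low gene was read more in every cell or in a few cells cannot be told apart in bulk RNA, nor can fewer cells of a type and less RNA per cell.

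**Figure D1:**
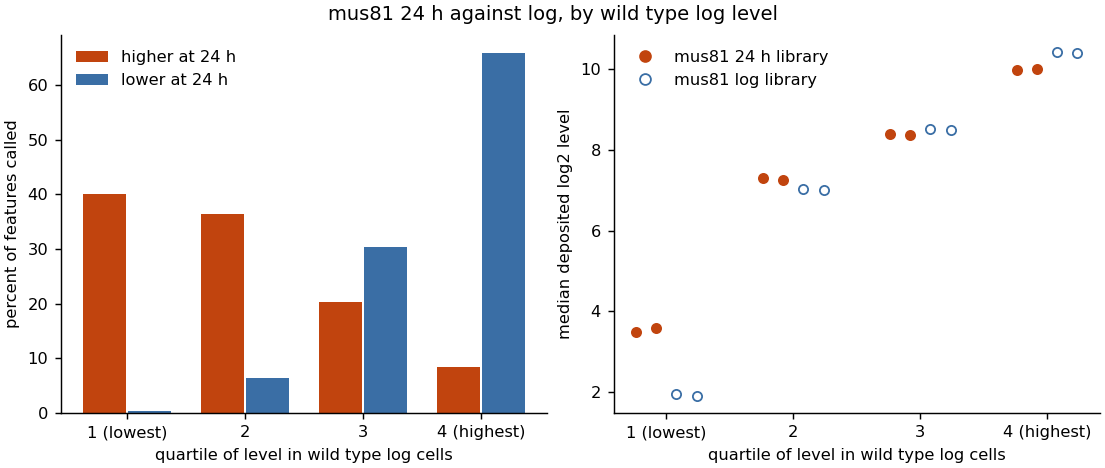
Share of features called higher or lower at 24 h in mus81 (left, percent of features tested) and median deposited log2 level per mus81 library (right), by quartile of the level in wild type log cells. Points are single libraries; in the lowest quartile both 24 h libraries lie near 3.5 and both log libraries near 1.9, and in the highest the 24 h libraries lie below the log libraries.

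Among the 12 largest rises were genes of the heat and general stress response. HSP26, a small heat shock chaperone, stood at 9.90 and 9.46 at 24 h and at 3.38 and 3.37 in log phase. TMA10, a small protein found with ribosomes, stood at 10.06 and 9.92 at 24 h and at 3.30 and 3.49 in log phase. HSP12, a stress protein of membranes, stood at 10.83 and 11.50 at 24 h and at 5.40 and 5.63 in log phase. None of the 3 overlapped between groups, which the rule for the 12 largest rises required. With 2 libraries a group, 79.3% of all features were without overlap. The differences were 79.0-fold for HSP26 (change 6.30 ± 0.27, adjusted p = 1.14e-09, limma), 96.4-fold for TMA10 (6.59 ± 0.20, adjusted p = 3.03e-11) and 50.1-fold for HSP12 (5.65 ± 0.19, adjusted p = 5.55e-11). Their upstream sequences are shown because the stress response element, read by Msn2 and Msn4, is the letters CCCCT. The windows run from 400 to 101 bases before the start codon in the R64 reference sequence of RefSeq, 5′ to 3′ in the direction of the gene, and capitals mark CCCCT on either strand.
HSP26, chrII:381630-381929, plus strand: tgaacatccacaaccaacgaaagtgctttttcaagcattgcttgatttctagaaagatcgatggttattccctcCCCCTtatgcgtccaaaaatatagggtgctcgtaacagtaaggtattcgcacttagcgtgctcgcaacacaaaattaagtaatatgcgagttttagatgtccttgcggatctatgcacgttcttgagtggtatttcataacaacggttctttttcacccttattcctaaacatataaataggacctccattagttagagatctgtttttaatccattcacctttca
TMA10, chrXII:783488-783787, minus strand: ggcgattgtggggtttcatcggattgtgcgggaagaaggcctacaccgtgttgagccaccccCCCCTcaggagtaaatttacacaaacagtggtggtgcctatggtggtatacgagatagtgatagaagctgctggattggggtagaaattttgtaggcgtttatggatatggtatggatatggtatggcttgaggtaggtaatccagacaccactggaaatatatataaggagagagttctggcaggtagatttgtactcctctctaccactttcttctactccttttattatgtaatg
HSP12, chrVI:106856-107155, plus strand: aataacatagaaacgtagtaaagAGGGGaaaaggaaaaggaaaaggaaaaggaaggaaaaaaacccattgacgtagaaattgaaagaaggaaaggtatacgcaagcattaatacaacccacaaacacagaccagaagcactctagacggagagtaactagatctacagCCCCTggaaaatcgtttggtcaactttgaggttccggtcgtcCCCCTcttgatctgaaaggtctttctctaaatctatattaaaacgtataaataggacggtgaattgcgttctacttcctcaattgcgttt
The element was found once each for HSP26 and TMA10 and in 3 places for HSP12. In 5986 windows of this length 23.55% held at least 1 element, against 95% of the 40 genes of the general stress list, a list of genes known to answer to Msn2 and Msn4. It was in 6 of the 11 windows to be had for the 12 largest rises. Of the 1651 windows of genes called higher 32.53% held it, and of the 1706 of genes called lower 17.94%. These matches are a description of letters and say nothing of binding.

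Every member of the general stress list was higher: 40 of 40, with a median change of 2.32, or 2.23 relative to all features. The list, like the others here, was written with earlier results of these data known. Together these genes held 0.522% and 0.467% of the reads at 24 h and 0.0906% and 0.0685% in log phase. MOH1 had 113 and 82 reads at 24 h and 5 and 5 in log phase. DDR2, a stress gene, had 81 and 65 reads at 24 h and 3 and 0 in log phase, so its fold is set by a handful of reads. XBP1, a transcriptional repressor made under stress, had 78 and 54 reads at 24 h and 9 and 1 in log phase, and its change of 4.87 ran from 3.67 without log replicate 2 to 6.07 without log replicate 1.

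YLR042C, named NFG1 in RefSeq, had the largest change of the genes that pass the level filter, at 9.09 and 8.81 at 24 h and 3.13 and 0.91 in log phase. Its change of 6.93 ± 0.49 was 5.81 without log replicate 2 and 8.04 without log replicate 1. PIR3, a covalently linked wall protein, stood at 10.96 and 11.06 at 24 h and at 5.98 and 5.88 in log phase, and YLR312C, named ATG39 in RefSeq and a receptor of autophagy of the nucleus, stood at 7.89 and 7.97 against 3.04 and 2.49. The changes of these 2 genes were 5.08 ± 0.20 and 5.16 ± 0.23. The rest of the 12 largest rises were the rDNA spacer feature IGS1-2S†, described below, and PUT1 (proline oxidase, 3.95), BOP2 (3.88), AMS1 (vacuolar mannosidase, 3.76), YKR075C† (3.69) and STF1 (a regulator of the ATP synthase, 3.63).

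**Figure D2:**
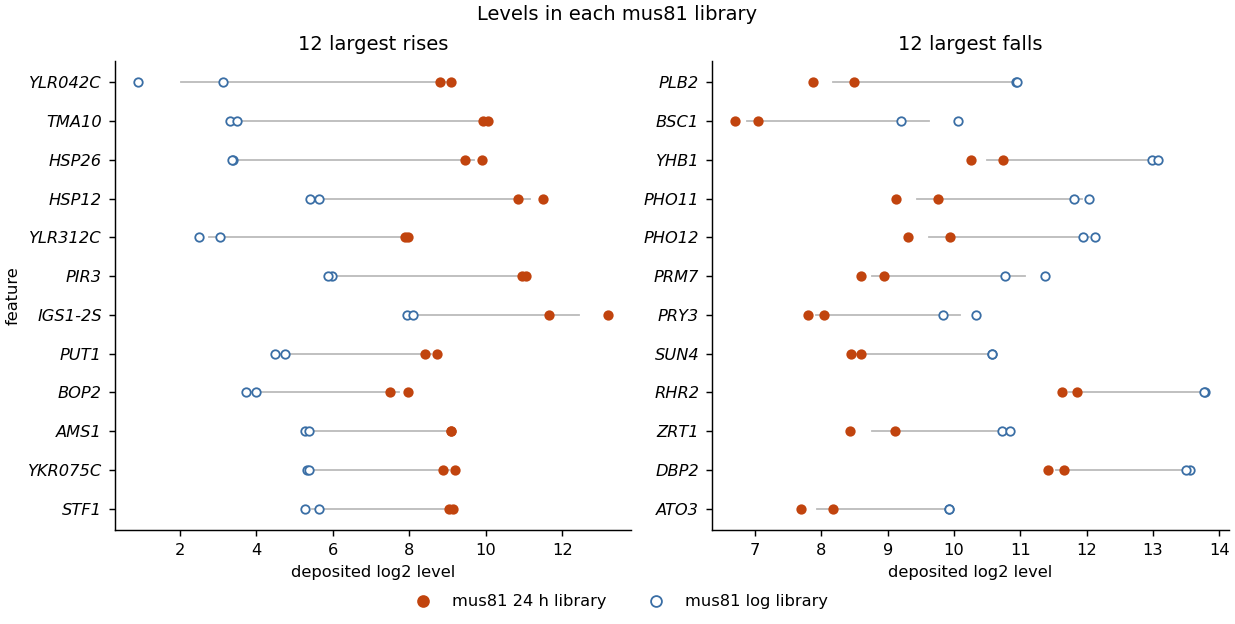
Deposited log2 level in each mus81 library for the called features that changed most, 12 upward and 12 downward; filled points are the 24 h libraries, open points the log libraries, and the grey line joins the group means. No pair of groups overlaps, and the rises span up to 6.93 while the falls reach −2.76.

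Other stress groups moved less evenly. Of 30 chaperones 13 were higher and 10 lower (median 0.18, against −0.10 to 0.56 for the median of all features over the scalings). Members of the Hsp70 family moved in both directions: SSA4, its stress-induced form, stood at 9.31 and 9.04 at 24 h against 6.91 and 6.99 in log phase, and SSB1*†, which binds chains leaving the ribosome, at 13.34 and 13.65 against 14.99 and 15.02. Both genes were separated between groups. HSP78, a mitochondrial disaggregase, was 4.16-fold higher. Of 34 oxidative stress enzymes 13 were higher and 9 lower (median 0.22); scaled to total reads 23 were higher and 4 lower. YHB1, which breaks down nitric oxide, was among the deepest falls at 10.26 and 10.73 at 24 h and 12.98 and 13.08 in log phase (−2.54 ± 0.30, adjusted p = 8.99e-06). Of 31 genes listed for wall stress 23 were higher and 4 lower (median 0.87); 1 of the 4, MLP1, encodes a nuclear pore protein and entered the list through a shared alias. GSC2, a glucan synthase made under wall stress, was 5.91-fold higher and YLR194C, named NCW2 in RefSeq, 10.2-fold. Of 23 trehalose and glycogen genes 17 were higher and none lower (median 1.13), among them GLC3, the glycogen branching enzyme (8.20-fold), and GPH1*†, glycogen phosphorylase (7.16-fold).

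Genes of carbon metabolism differed by role. Of 21 glycolysis and fermentation genes 15 were lower and 4 higher, with a median of −0.80 (−0.33 scaled to total reads, 0.00 after quantile normalization, which left 5 lower and 4 higher). ADH1, the alcohol dehydrogenase of fermentation, stood at 14.28 and 14.22 at 24 h against 15.93 and 15.77 in log phase, and ENO2, an enolase, at 15.00 and 15.19 against 16.70 and 16.68. Both genes were lower by 1.60 (SE 0.20 and 0.22), and by 0.63 and 0.56 after quantile normalization, still called. The whole list held 7.09% and 7.37% of the reads at 24 h, against 11.3% and 10.9% in log phase.

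The 4 glycolytic members that rose were minor or glucose-repressed forms. HXK1*, a hexokinase repressed by glucose, stood at 10.71 and 10.23 at 24 h against 8.15 and 7.83 in log phase. GLK1*, glucokinase, stood at 10.60 and 10.38 at 24 h against 8.87 and 7.83 in log phase. The others were PDC6, a minor pyruvate decarboxylase with 48 and 42 reads at 24 h and 5 and 3 in log phase, and PYK2, a pyruvate kinase used at low glycolytic flux (change 1.49). None of the 4 overlapped between groups.

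Of 32 genes of gluconeogenesis, the glyoxylate cycle and their uptake 25 were higher and 2 lower (median 1.45). JEN1, a lactate permease, had 120 and 124 reads at 24 h against 23 and 18 in log phase and was 8.11-fold higher. FBP1, fructose bisphosphatase, had 61 and 20 reads at 24 h against 3 and 3. The 2 members that fell were ADH2, at 10.12 and 10.19 at 24 h against 11.71 and 11.95 in log phase, and PYC2, whose fall was not called when scaled to total reads or after quantile normalization. Of 20 hexose transporters and sensors 14 were higher and 1 lower (median 1.69, and 6 higher after quantile normalization); several of the risers had under 10 reads in log phase.

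Genes of mitochondrial respiration rose nearly as a block. Of 35 respiratory chain genes 34 were higher and none lower (median 1.08, or 0.99 relative to all features). CYT1, cytochrome c1, stood at 9.21 and 9.39 at 24 h against 7.30 and 7.38 in log phase, and QCR6, a subunit of the same complex, at 10.97 and 11.43 against 9.29 and 9.17. These were 3.89-fold and 3.92-fold differences with no overlap of the groups. NDE2, an external NADH dehydrogenase (18.4-fold), and CYC7, the minor cytochrome c (9.05-fold), changed more and started from 25 or fewer reads in log phase. Of 17 TCA cycle genes 13 were higher (median 0.94); SDH1, a subunit of succinate dehydrogenase, was 4.33-fold higher and CIT1, mitochondrial citrate synthase, 2.54-fold. Of 23 peroxisome and fatty acid oxidation genes 10 were higher and 1 lower (median 0.47), against 6 higher after quantile normalization and 17 when scaled to total reads. Of 31 genes of autophagy and vacuolar proteolysis 21 were higher and none lower (median 1.02), and ATG8, the ubiquitin-like protein of the autophagosome, stood at 8.23 and 8.35 at 24 h against 5.67 and 5.08 in log phase. Of 13 genes of NAD synthesis 7 were higher and 3 lower (median 0.58), with BNA2*, which opens the pathway from tryptophan, 6.19-fold higher.

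Genes of ribosome production fell. All 94 ribosome biogenesis genes were lower at 24 h, with a median of −1.08 (−0.60 scaled to total reads with 79 lower, −0.77 after quantile normalization with 83 lower). They held 2.37% and 2.62% of the reads at 24 h, against 3.89% and 4.09% in log phase. NSR1†, nucleolin of yeast, stood at 11.63 and 12.04 at 24 h against 13.71 and 13.57 in log phase. DBP2, a DEAD-box helicase, stood at 11.41 and 11.65 at 24 h against 13.57 and 13.50 in log phase. Both fell, to 0.286 and 0.250 of the log level (adjusted p = 4.14e-05 and 2.34e-06, limma). Their windows are shown because genes of this group commonly carry the PAC core, GATGAG, and the RRPE core, AAAATTT, which capitals mark on either strand. The run of 8 letters that ends in 4 T reads as the RRPE core on both strands and counts as 2 matches.
NSR1, chrVII:807757-808056, minus strand: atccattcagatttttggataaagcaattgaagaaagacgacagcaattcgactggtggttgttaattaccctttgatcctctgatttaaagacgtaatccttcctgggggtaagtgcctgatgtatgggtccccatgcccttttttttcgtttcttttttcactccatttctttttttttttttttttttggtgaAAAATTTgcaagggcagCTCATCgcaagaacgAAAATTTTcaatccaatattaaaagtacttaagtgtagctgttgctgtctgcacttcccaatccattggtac
DBP2, chrXIV:413239-413538, plus strand: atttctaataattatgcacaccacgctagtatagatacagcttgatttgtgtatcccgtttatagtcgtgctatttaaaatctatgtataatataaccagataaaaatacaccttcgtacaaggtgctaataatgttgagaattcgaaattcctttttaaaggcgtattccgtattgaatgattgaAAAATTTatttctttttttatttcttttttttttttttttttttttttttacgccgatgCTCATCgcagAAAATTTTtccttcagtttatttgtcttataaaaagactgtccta
Each window held 1 PAC core, and next to it RRPE cores, 3 matches in all. The PAC core was found in 69.15% of the 94 windows of the list and in 18.39% of all windows, and the RRPE core in 87.23% and 24.27%. Of windows of genes called lower 38.57% held the RRPE core, and of genes called higher 18.05%. For the PAC core these shares were 24.56% and 16.96%. Among the 12 largest changes each way it went the other way, in 5 of 11 windows of rises and 3 of 12 of falls.

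Of 24 subunits of RNA polymerase I and III 20 were lower and none higher (median −0.69, and 11 lower when scaled to total reads): the 2 largest subunits of polymerase I, RPA190 and RPA135, fell by 1.22 ± 0.14 and 1.37 ± 0.18. Of 137 cytosolic ribosomal protein genes 111 were lower and 3 higher, with a median of −0.70, but that count rests on the scale: 45 were lower and 11 higher scaled to total reads (median −0.22), and 18 lower and 15 higher after quantile normalization (median −0.04). Quantile normalization can take out a fall shared by highly read genes, so its counts do not decide whether these genes fell. As a share, ribosomal protein genes held 17.1% and 17.9% of the reads at 24 h and 19.9% and 21.0% in log phase. RPL3 had the deepest fall of the list, at 13.37 and 13.48 at 24 h against 14.88 and 14.81 in log phase. The 3 called higher, RPL26A, RPS30A and RPL41B*, rose by 0.33, 0.50 and 0.67, and each lost its call in at least 1 fit without a library. RPL26A and RPL41B* were also not called after median centring (0.25 and 0.59), nor was RPL41B* without a variance trend or with either replicate block.

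**Figure D3:**
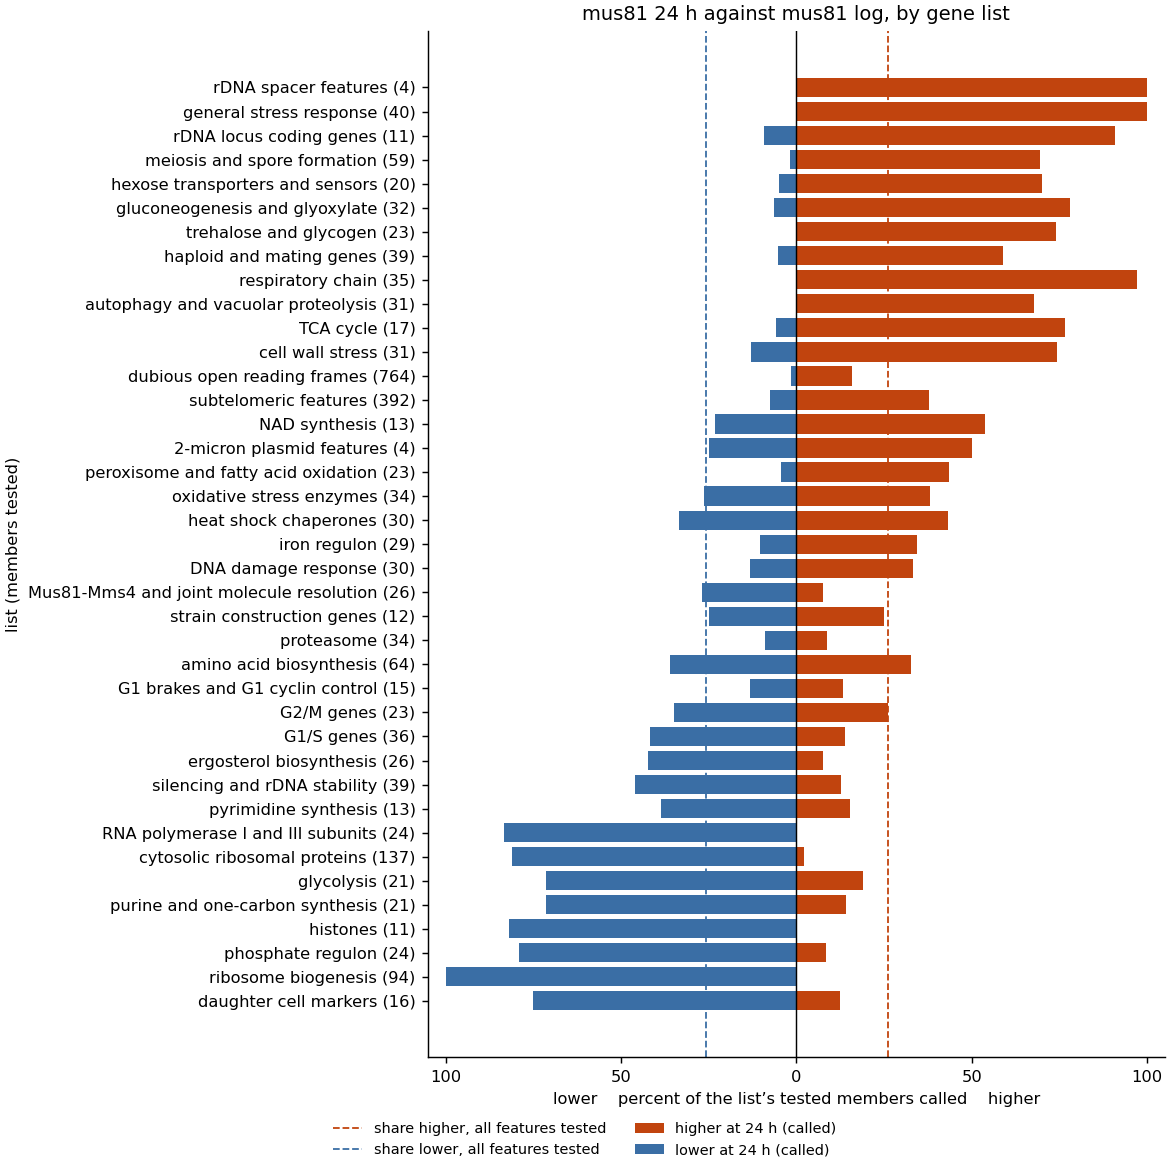
Percent of each list's tested members called higher (right) or lower (left) in mus81 at 24 h against log, with the number tested in brackets, ordered by median change. Dashed lines mark the share of all 6669 features called, 26.3% higher and 25.7% lower. The general stress list reaches 40 of 40 higher and ribosome biogenesis 94 of 94 lower. The gene lists were written with earlier results of these data known.

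Of 24 phosphate regulon genes 19 were lower and 2 higher (median −0.90), against 9 lower and 3 higher when scaled to total reads (median −0.42). The acid phosphatases PHO11* and PHO12*, which are near-identical copies, stood at 9.13 and 9.76, and at 9.30 and 9.93, at 24 h, against 11.82 and 12.04, and 11.94 and 12.13, in log phase. VTC3, of the complex that makes polyphosphate, stood at 11.05 and 11.38 at 24 h against 12.82 and 12.92 in log phase (0.317-fold, adjusted p = 1.32e-05). PHM8, a nucleotide phosphatase, went the other way and was 10.0-fold higher. The VTC3 window is shown with the letters CACGTG, the E-box read by Pho4, in capitals.
VTC3, chrXVI:517119-517418, minus strand: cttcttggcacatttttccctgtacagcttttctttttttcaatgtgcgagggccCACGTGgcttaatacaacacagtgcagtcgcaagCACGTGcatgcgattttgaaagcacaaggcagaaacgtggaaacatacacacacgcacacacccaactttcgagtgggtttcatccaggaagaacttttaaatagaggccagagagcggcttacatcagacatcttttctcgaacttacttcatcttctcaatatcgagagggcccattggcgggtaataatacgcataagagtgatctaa
The E-box occurred in 2 places there, in 58.33% of the 24 windows of the list and in 4.561% of all windows. Of 21 purine and one-carbon genes 15 were lower and 3 higher (median −0.83, or −0.36 with 10 lower and 5 higher when scaled to total reads), with ADE5,7, a 2-step enzyme of purine synthesis, at 0.370 of its log level. The 3 that rose, GCV1, GCV2 and GCV3, encode the glycine cleavage system.

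Lists with mixed members had medians whose sign or size depends on the scale. Of 64 amino acid genes 21 were higher and 23 lower, with a median of −0.11. After quantile normalization 24 were higher and 9 lower (median 0.18), and scaled to total reads 33 and 8 (median 0.37). The arginine genes were among the risers: ARG4 stood at 9.96 and 10.01 at 24 h against 7.95 and 7.96 in log phase. Of 26 ergosterol genes 2 were higher and 11 lower (−0.28, but 0.02 and 0.19 on those scales). These counts became 4 and 6 after quantile normalization, and 8 and 3 scaled to total reads. Of 13 pyrimidine genes 2 were higher and 5 lower (−0.38, −0.08 and 0.10), against 3 and 4, and 6 and 3, on those scales. Of 34 proteasome genes 3 were higher and 3 lower (−0.09, 0.20 and 0.38), with 12 and 27 higher on those scales. Of 29 iron regulon genes 10 were higher and 3 lower (0.15, 0.10 and 0.62, with 9 and 21 higher on those scales), with the wall mannoprotein FIT3 4.27-fold higher and the low-affinity transporter FET4 at 0.295 of its log level.

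The remaining large falls were genes of other kinds. PLB2, a phospholipase B, stood at 7.87 and 8.48 at 24 h against 10.93 and 10.95 in log phase, and BSC1 at 6.70 and 7.04 against 10.06 and 9.19; both fell by 2.76. RHR2, a glycerol phosphatase, stood at 11.62 and 11.86 at 24 h against 13.79 and 13.77 in log phase (0.243-fold, adjusted p = 3.65e-07). ZRT1, the high-affinity zinc transporter, fell by 2.02, ATO3 by 1.99 and PRM7 by 2.31. Groups did not overlap for any of these genes, which the naming rule requires.

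Markers of daughter cells were lower in the aged mothers. Of 16 such genes 12 were lower and 2 higher (median −1.24, or −0.76 scaled to total reads). PRY3 and SUN4 were among the 12 largest falls, with SUN4, which acts in septation, at 8.60 and 8.45 at 24 h against 10.57 and 10.57 in log phase. DSE1 stood at 8.67 and 8.51 at 24 h against 10.24 and 10.05 in log phase, and SCW11, whose promoter drives the Cre of the MEP, at 8.80 and 8.43 against 10.27 and 10.03. TEC1, a transcription factor of filamentous growth and mating that is on this list, was 4.96-fold higher. UBC9, a gene that Cre removes, stood at 6.37 and 5.61 at 24 h against 8.03 and 7.95 in log phase (0.250-fold). The 16 markers together took 0.229% and 0.191% of the reads at 24 h against 0.352% and 0.302% in log phase, and none was without reads in any of these libraries. They moved with age beside every other gene list, and their part in those results was not tested.

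Genes of the cell cycle were described by phase. Of 11 histone genes 9 were lower and none higher (median −0.86): HTA2 stood at 10.30 and 10.38 at 24 h against 11.65 and 11.64 in log phase, and HTB2 at 9.84 and 9.69 against 11.15 and 11.10. Of 36 G1/S genes 5 were higher and 15 lower (median −0.24, but 0.23 scaled to total reads, where 13 were higher and 2 lower), with RNR1, the large subunit of ribonucleotide reductase, at 0.454 of its log level and the wall-linked SVS1 3.03-fold higher. Of 23 G2/M genes 6 were higher and 8 lower (−0.19, but 0.28 on that scale, with 10 higher and 1 lower). Of 15 genes of G1 brakes and G1 cyclin control 2 were higher and 2 lower (−0.11, but 0.36 on that scale, with 7 higher and 2 lower). SRL3, a brake on entry into the cell cycle, stood at 8.56 and 8.16 at 24 h against 6.61 and 4.91 in log phase. Its change of 2.60 was 1.75 without log replicate 2 and 3.45 without log replicate 1.

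Genes of DNA repair were looked at because the strain lacks a nuclease of recombination. Of 26 genes that act with Mus81-Mms4 or on joint DNA molecules 2 were higher and 7 lower, while 52.0% of all features were called in one direction or the other, with a median of 0.08 that was −0.25 after quantile normalization. Scaled to total reads, 14 of the 26 were higher and none lower (median 0.55), so no direction holds for this list. RMI1, a partner of the Sgs1 helicase, stood at 8.29 and 8.53 at 24 h against 7.14 and 7.48 in log phase and rose 2.14-fold. The 7 called lower had changes between −0.68 and −0.36 and included the Polo kinase CDC5 and RAD5; none of the 7 was called when scaled to total reads, and EXO1 and RAD27 turned to 0.06 and 0.07 on that scale. Of 30 DNA damage response genes 10 were higher and 4 lower (median 0.10), near the 26.3% of all features called higher; scaled to total reads 22 were higher and 2 lower (median 0.58). HUG1, an inhibitor of ribonucleotide reductase that the checkpoint induces, stood at 7.71 and 7.36 at 24 h against 4.30 and 4.23 in log phase (9.64-fold, adjusted p = 7.99e-08). MEC3, a subunit of the checkpoint clamp, stood at 8.12 and 8.11 at 24 h against 6.41 and 6.69 in log phase. Both genes were clear of overlap, and RNR1 of the same list fell.

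Silencing and rDNA stability genes leaned lower. Of 39, 18 were lower and 5 higher (median −0.37, but 0.10 scaled to total reads, where 5 were lower and 12 higher). SIR2†, the histone deacetylase of rDNA silencing, stood at 7.63 and 7.28 at 24 h against 8.57 and 8.58 in log phase, and FOB1, which blocks replication forks in the rDNA, at 7.56 and 7.60 against 8.48 and 8.61. NET1†, the nucleolar anchor of Sir2, stood at 9.55 and 9.52 at 24 h against 10.58 and 10.54 in log phase. The 3 genes were at 0.460, 0.513 and 0.492 of their log levels and called under each alternative scaling too. SMC6 and CSM3, of a structural maintenance complex and of the fork protection complex, were 1.75-fold and 1.97-fold higher.

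All 4 rDNA spacer features rose. The table holds each of 2 spacer intervals of chromosome XII on both strands: IGS2-1 (chrXII:457733-459675, R64), which the reference annotation fills with ETS1-1 and NTS2-1, and IGS1-2 (chrXII:459797-460922), filled with NTS1-2 and ETS2-2. The 700 bases of ETS1-1 in IGS2-1 and the 211 bases of ETS2-2 in IGS1-2 belong to the precursor of ribosomal RNA on the minus strand, so antisense values (AS) of both include precursor sequence. IGS1-2S† stood at 13.19 and 11.65 at 24 h against 7.94 and 8.09 in log phase. IGS2-1S† stood at 10.70 and 10.00 at 24 h against 7.43 and 6.55 in log phase. The sense strand was thus higher in both 24 h libraries than in either log library, 21.3-fold (4.41 ± 0.36, adjusted p = 3.29e-07) and 10.3-fold (3.36 ± 0.30, adjusted p = 7.27e-07). IGS2-1AS† stood at 14.31 and 12.82 at 24 h against 10.49 and 10.15 in log phase (3.25 ± 0.44, adjusted p = 2.74e-05). IGS1-2AS† stood at 9.73 and 9.98 at 24 h against 7.16 and 8.03 in log phase (2.27 ± 0.51, adjusted p = 0.0017). Together the 4 features took 0.728% and 0.275% of the reads at 24 h against 0.0321% and 0.0282% in log phase.

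The 2 aged mus81 libraries differed in their spacers. Replicate 1 was above replicate 2 in 3 of the 4 features, and without replicate 1 the change of IGS1-2S was 3.64 and that of IGS2-1AS 2.50. IGS2-1 spans the rDNA origin of replication, which is shown because it is the element that lets a circle of rDNA replicate; capitals mark stretches that match the 11-letter ARS consensus at 10 or more letters on either strand.
ARS1200-1, chrXII:458991-459097, plus strand: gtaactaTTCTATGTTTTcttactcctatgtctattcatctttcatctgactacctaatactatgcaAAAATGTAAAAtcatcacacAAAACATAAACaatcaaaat
There were 3 such stretches in its 107 bases, and the best matched all 11 letters. Of 11 tested genes annotated within or beside the rDNA 10 were higher and 1, ACS2, lower, with a median of 2.02 relative to all features; 6 were higher after quantile normalization and 7 in voom, limma's fit to reads. The asparaginase copies, such as ASP3-4* at 11.30 and 11.59 at 24 h against 9.28 and 9.30 in log phase, lie there in tandem and cannot be told from each other. TAR1 had 57 and 156 reads at 24 h against 25 and 7 in log phase and was not called after quantile normalization, in voom, without a variance trend, or without 24 h replicate 2 (change 2.38) or log replicate 2 (2.74). Of 4 features of the 2-micron plasmid 2 were higher, the one that spans positions 1 to 6318 (0.90 ± 0.20) and the one from 2271 to 2816 (1.36 ± 0.13), and the one from 4308 to 5198 was lower by 0.44, a fall that turned to 0.10 after quantile normalization and 0.04 when scaled to total reads.

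**Figure D4:**
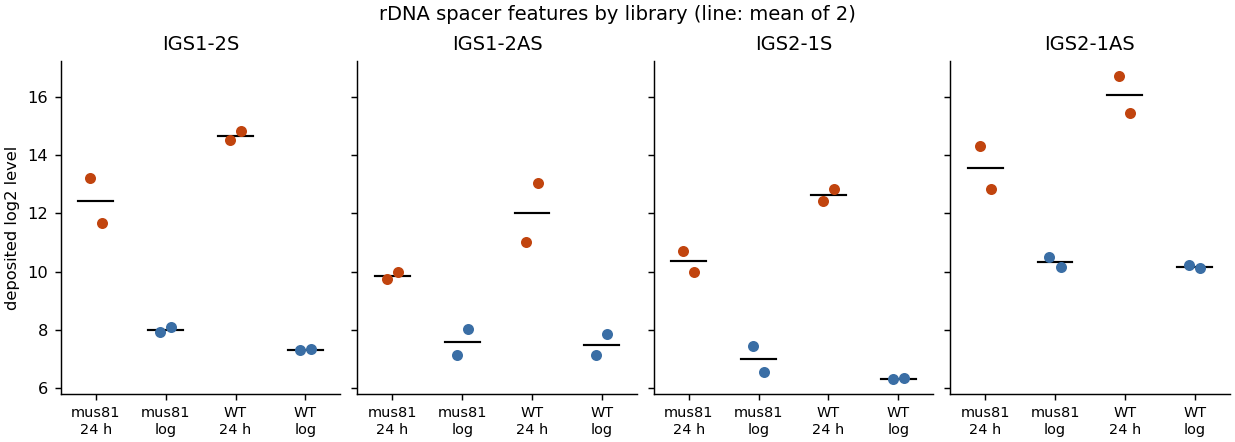
Deposited log2 level of the 4 rDNA spacer features in each library of mus81 and wild type (WT) at 24 h and in log phase; points are libraries and lines are means of 2. In each panel both mus81 24 h points lie above both mus81 log points and below both wild type 24 h points.

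Lists with many features of low level were counted next. The haploid and mating list had 22 of its 39 tested genes at or below the 25th percentile of mean level. Of 39 haploid and mating genes 23 were higher and 2 lower (median 1.10, 0.25 after quantile normalization with 14 higher), and together they took 0.121% and 0.113% of the reads at 24 h against 0.0520% and 0.0496% in log phase. FUS1, of cell fusion, had 186 and 145 reads at 24 h against 7 and 13 in log phase, a change of 4.54 that was 3.71 without log replicate 1 and 5.37 without log replicate 2. Of 59 genes of meiosis and spore formation 41 were higher and 1, ZIP1, lower (median 1.70, 0.39 after quantile normalization with 19 higher). CDA1, a chitin deacetylase of the spore wall, had 253 and 237 reads at 24 h against 24 and 10 in log phase (21.4-fold). SPO74, of spore membrane assembly, had 70 and 90 reads at 24 h against 7 and 3. Of these 59 genes 49 had mean levels at or below the 25th percentile. Of 764 dubious open reading frames, most of which overlap other genes, 121 were higher and 12 lower. That is a smaller share higher than the 26.3% of all features. Their median was 0.82, and −0.18 after quantile normalization, where 31 were higher and 78 lower. Scaled to total reads 210 were higher and 3 lower. Of these frames 708 had mean levels at or below the 25th percentile, where the floor enters the changes. Of 392 subtelomeric features, within 25 kb of a chromosome end, 148 were higher and 29 lower (median 0.68, or 0.09 after quantile normalization with 83 higher and 44 lower).

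Most features called in mus81 were called in the same direction in wild type. In wild type 1626 features were higher and 1615 lower at 24 h (48.6%), from libraries that share none with the mus81 comparison, although both sets of calls use 1 estimate of spread per feature. Of the 1752 features higher in mus81, 1361 were higher in wild type too (77.68% of the mus81 list and 83.7% of the wild type list), and of the 1717 lower 1421 (82.76% and 87.99%). Across the 6669 features the 2 changes correlated at 0.884, and at 0.943 across the 5001 above the 25th percentile of level. Features are not independent replicates. The log replicates of the 2 strains also deviated alike, with a correlation of 0.563 by replicate number. What this adds to the likeness of the 2 changes was not tested. The test of the difference between the 2 changes called 1 feature, IGS2-1S† (0.0150%), and 380 reached an unadjusted p under 0.05 (5.70%). Without wild type 24 h replicate 1 that count was 42, and in 8 of the 18 alternatives to this test it was 0. Wild type 24 h replicate 2 was the shallowest library of the table, at 1656535 reads.

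**Figure D5:**
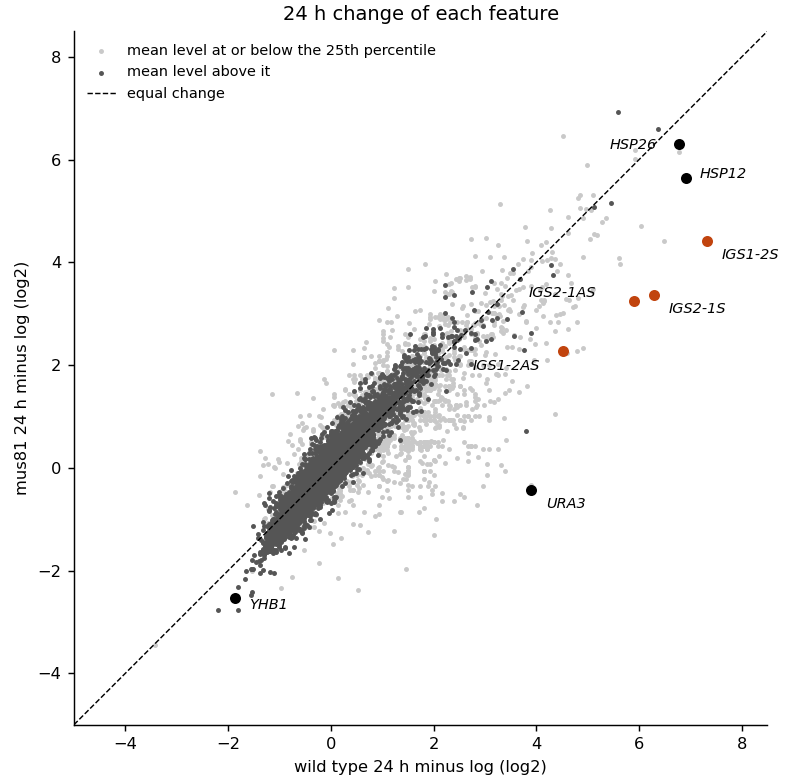
Change from log to 24 h of each feature tested, mus81 (vertical) against wild type (horizontal), both as log2 differences; light points have mean levels at or below the 25th percentile, and the dashed line marks equal change. The 4 rDNA spacers lie below the line at 2.27 to 4.41 in mus81 and 4.52 to 7.33 in wild type, and URA3 lies far below it.

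A spacer was the 1 feature that passed that test. IGS2-1S was at 10.70 and 10.00 in mus81 24 h libraries and at 12.43 and 12.82 in wild type 24 h libraries, against 7.43 and 6.55 in mus81 log and 6.33 and 6.34 in wild type log libraries. Its rise was smaller in mus81 by 2.93 ± 0.42 (adjusted p = 0.0389, limma), a call that holds in 9 of 18 alternatives and has adjusted p between 0.00541 and 0.715 over them. The rise of IGS1-2S was smaller by 2.92 ± 0.51 (adjusted p = 0.0999), that of IGS2-1AS by 2.64 ± 0.63 (adjusted p = 0.374) and that of IGS1-2AS by 2.26 ± 0.72 (adjusted p = 0.720), none of them called. All 4 were lower in both mus81 24 h libraries than in both wild type 24 h libraries. As a share of reads the spacers took 0.728% and 0.275% in mus81 and 2.84% and 1.78% in wild type at 24 h, against 0.0321% and 0.0282% in mus81 and 0.0252% and 0.0248% in wild type log phase.

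No protein-coding gene passed the test of the difference, whose SE allowed only large differences to be called. HSP12 rose by 5.65 in mus81 and by 6.91 in wild type (difference −1.26, adjusted p = 0.374), and CDA1 by 4.42 and 6.48 (difference −2.07, adjusted p = 0.374). URA3, a gene used as a marker in yeast strains, stood at 7.92 and 7.85 at 24 h against 8.36 and 8.28 in log phase in mus81, and at 3.61 and 6.72 against 0.76 and 1.75 in wild type, so every mus81 library lay above every wild type library at both ages. Over the lists the median difference ran from −0.43 for daughter markers to 0.31 for the respiratory chain, leaving out the spacers. The respiratory chain list had 34 of 35 members higher in mus81 and 28 in wild type, and silencing and rDNA stability 18 of 39 lower in mus81 and 10 in wild type; these counts were not tested against each other.

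Between 24 h and 48 h the mus81 mothers changed further in 423 features (6.34%), 66 higher (0.990%) and 357 lower (5.35%) at 48 h. This comparison shares the 24 h libraries with the one against log phase. Ribosomal protein genes made up 107 of the 357, out of 137 tested. The comparison of 48 h with 24 h was not run on the other scales, on which the 24 h counts of these genes moved. PHO84, a phosphate transporter, stood at 14.21 and 14.31 in log phase, at 12.97 and 13.14 at 24 h and at 11.17 and 9.62 at 48 h. Its fall from log phase to 24 h was not called after quantile normalization (−0.53), without a variance trend or when scaled to total reads (−0.73). HSP26 went on rising, to 10.80 and 11.06 at 48 h, against 9.90 and 9.46 at 24 h (1.25, adjusted p = 0.0158). None of the 4 spacers changed between 24 h and 48 h by the test: IGS2-1S stood at 9.70 and 10.38 at 48 h.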

How the data were processed

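RNA was poly(A) selected and made into directional libraries, per the labels' protocols. Trim Galore 0.6.6, HISAT2 2.1.0 and build R64 stand in the submitters' processing notes; for the counting program, strand setting and scaling, the sources used here name none. The authors deposited log2 values per feature (6672) and library in 1 table of 12 libraries; the other tables of the series were not used here. Reads were recovered from the steps of these values (100% whole within 0.02, taking the lowest value of a library as 0 reads entered as 0.9). Library totals were 1656535 to 11330955 reads, and low genes carry the counting error of their few reads.

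The log2 values were fitted with limma 3.58.1 in R 4.3.3 (6 group means, 6 residual degrees of freedom, variance trend), with Benjamini-Hochberg adjustment over the 6669 features above the floor in at least 2 libraries; adjusted p-values are from this fit unless an alternative is named, and the code was tested on simulated data. Alternatives were quantile normalization, median centring, other filters, no variance trend, fewer groups, replicate blocks, each library left out, voom on reads, and log2 reads scaled to library totals. Named were the 12 largest called rises and falls above the 25th percentile of mean level without overlap of groups, up to 6 called members per list and direction, called differences from wild type (at most 10), and MUS81, MMS4, URA3, spacers and plasmid features; any other gene was chosen after its values were seen. The members and gene lists were chosen with earlier results of these data known. Features marked * (528) share exact stretches of 50 bases with another feature over more than 30% of their length, or overlap one on the same strand. Another 'overlap' mark, †, stands for 1060 tested features that overlap one on the other strand.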

Additional observations from a re-analysis of the deposited data

Results flagged for a closer look

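IGS2-1S rose less in mus81 than in wild type: the 24 h changes differed by −2.93 on the log2 scale, the single difference between the strains that passed its own limma test (adjusted p = 0.0389). The call held in 9 of 18 alternatives. It was lost, among others, after quantile normalization, without a variance trend, with only the groups compared and with the replicate block.

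In 3 named genes the mus81 groups moved one way between log phase and 24 h without overlap, and the wild type groups the other. The test of the difference did not pass for any of them. How many of all features do so is not given here. The mus81 groups alone did not overlap in 79.3% of all features, and 1 feature of all tested was called in opposite directions in the 2 strains. RPL26A, a large subunit protein, stood at 12.304 and 12.348 at 24 h against 12.002 and 11.989 in log phase in mus81, and at 11.765 and 11.918 against 12.142 and 12.041 in wild type (difference 0.5804, adjusted p = 0.549 in limma). RPS30A, a small subunit protein, stood at 12.43 and 12.39 at 24 h against 11.90 and 11.92 in log phase in mus81, and at 11.77 and 11.92 against 12.12 and 11.99 in wild type (difference 0.7095, adjusted p = 0.631 in limma). URA3, of pyrimidine synthesis, had 279 and 213 reads at 24 h against 597 and 332 in log phase in mus81, and 14 and 35 against 2 and 4 in wild type (difference −4.339, adjusted p = 0.392 in limma). Its fall in mus81 turned to 0.0397 when scaled to total reads. Groups of 2 libraries are too small to look for a library that stands apart within its group.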

How the results depend on the processing

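The mus81 24 h count of 3469 stayed within 1.5 times under all alternatives run: 2768 to 2880 with 1 mus81 library left out, 3670 in voom, 3566 with the replicate block and 3828 when scaled to total reads, a scale chosen, like voom for the difference, after seeing the data. The count of 1 difference from wild type was 0 after quantile normalization, without variance trend, with only the groups compared and with the replicate block, 2 with a block by library tag, and 0 to 42 with 1 library left out. The replicate numbers were not taken to pair libraries: deviations of mus81 24 h and log libraries by number correlated at 0.261, and over all pairs of groups at −0.136 to 0.563. The 0.563 was between mus81 log and wild type log libraries, so the log replicates of the 2 strains deviated alike. Of 4247 recomputed values for 306 results 4026 kept direction and call, 195 lost the call, 9 gained it and 17 changed sign. After quantile normalization the plasmid feature from 4308 to 5198 came to 0.0978, ERG11 to 0.0367, FBA1 to 0.0, FIT1 to −0.2664, MMS4 to −0.3375, MUS81 to −0.147 and URA10 to −0.0835. Scaled to total reads, that plasmid feature came to 0.0378, EXO1 to 0.0598, FET3 to 0.0889, QNS1 to 0.0092, RAD27 to 0.0744, RPN11 to 0.0253, RPT3 to 0.1763, STE12 to 0.0738 and URA3 to 0.0397. MUS81 24 h against log ran from −0.339 to 2.3623 with 1 mus81 library left out. None of the values that changed sign was called under that alternative, and the cause was not tested.

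With 2 libraries a group, a difference from wild type had to be large to pass, and features with few reads in log phase have folds set by those reads. Estradiol and the ageing culture were not varied apart from age.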

Other observations

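Some further genes of the named lists rose in mus81 at 24 h. HMX1, a haem oxygenase, stood at 7.86 and 7.50 at 24 h against 4.78 and 5.15 in log phase (6.56-fold), and TIS11, which brings down mRNAs when iron is short, at 7.04 and 6.92 against 4.89 and 5.19 (3.85-fold). Neither overlapped between groups. ARG3, of arginine synthesis, stood at 6.86 and 7.48 at 24 h against 3.89 and 4.15 in log phase (8.88-fold). BNA1 and BNA4, of NAD synthesis from tryptophan, were 3.78-fold and 3.87-fold higher. The glutaredoxin GRX1 was 4.15-fold and the mitochondrial peroxiredoxin PRX1 2.88-fold higher, and the vacuolar aminopeptidase LAP4 3.48-fold. TOM70, a receptor of the mitochondrial outer membrane, went the other way, at 9.73 and 9.77 at 24 h against 10.80 and 10.82 in log phase (0.479-fold).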
